A study of Mus musculus with 6 samples.

Results

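The 7 SMAD genes Smad1 to Smad7 and the 3 ID genes Id1, Id2 and Id3 were followed in RNA-seq counts of mouse lung endothelial isolates. These genes were taken by name, by matching the Ensembl identifiers of the count table to mouse symbols. All 10 were found among 56941 genes of the table, and all 10 were among the 18562 genes that passed the filter for low counts. Libraries came from primary cells isolated from mouse lungs with magnetic beads, freed of dead cells and kept in endothelial medium with serum. The sample titles label the cells PAECs, the usual short form for pulmonary arterial endothelial cells, without spelling it out. The FL group (3 libraries) carried a floxed Fundc1 gene and the EC-KO group (3 libraries) an endothelial knockout of Fundc1, a mitophagy receptor of the mitochondrial surface. The sources used here do not give the driver of the deletion, the strain, age and number of mice or the time in culture, and nothing in the labels says that libraries came from separate animals. The p-values therefore measure the spread between these libraries, which may be technical.

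SMAD proteins carry signals of the BMP and TGF-beta family from the cell surface to the nucleus. SMAD1 and SMAD5 are activated mainly by BMP receptors and SMAD2 and SMAD3 mainly by TGF-beta and activin receptors, and SMAD4 is the partner that both branches share. SMAD6 and SMAD7 are inhibitors that are themselves induced by the pathway, SMAD6 acting mostly on the BMP branch and SMAD7 on both. The ID genes are early targets of SMAD1 and SMAD5 in endothelium, and their proteins hold back basic helix-loop-helix (bHLH) transcription factors because they dimerise with them but do not bind DNA. Loss of the BMP receptor BMPR2, which feeds this branch, is known from heritable pulmonary arterial hypertension, the disease named in the title of the series.

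Library totals lay between 26658998 and 34306962 counts. Fundc1 was at 25.1, 32.0 and 30.7 CPM (edgeR's depth-scaled counts after TMM scaling) in FL 1, 2 and 3 and at 14.1, 18.2 and 12.8 CPM in EC-KO 1, 2 and 3, all below FL (log2 fold change -0.96, adjusted p = 0.00796, edgeR). Scaled to the pan-endothelial markers described next, where the median of all tested genes was 1.20, Fundc1 was at 0.17 (adjusted p = 0.627). Cdh5 and Pecam1, which define endothelium, had means of 2230 and 1840 CPM in FL against 1022 and 836 CPM in EC-KO. All markers of endothelium and of other lung cells on the lists were detected. Of 27 pan-endothelial markers 14 were lower and 0 higher in EC-KO, with a median log2 fold change of -0.95, and their summed level was 12240 to 17212 CPM in FL and 4733 to 9391 CPM in EC-KO. Relative to FL, the mean log2 level of this list was -1.41, -0.51 and -1.44 in EC-KO 1, 2 and 3, and -0.20, -0.02 and 0.22 in FL 1, 2 and 3. Of 17 epithelial markers 16 were higher and 0 lower (summed level 1943 to 4561 CPM in FL and 11776 to 17537 in EC-KO), and of 12 fibroblast markers 8 were higher and 0 lower (351 to 514 and 729 to 2044 CPM). Of 16 macrophage markers 14 were lower and 0 higher (5639 to 7428 and 2471 to 3295 CPM). Also lower were 7 of 11 smooth muscle and pericyte, 5 of 7 neutrophil and 5 of 7 lymphatic endothelial markers (medians -1.0, -1.90 and -1.53), with 0 higher, while 4 of 8 erythroid and platelet markers were higher (median 1.46) and 0 lower. Of 12 lymphocyte markers 2 were higher and 1 lower (25%, near the 27.1% of all tested genes in either direction). Higher and lower here mean an adjusted p under 0.05 in edgeR's test, which 13.5% of all tested genes reached in each direction. In such bulk RNA, fewer cells of a type and less RNA per cell cannot be told apart, and the part of these markers in the results for SMAD and ID genes was not tested unless a value is given.

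Among the 10 SMAD and ID genes, Smad6 fell and Smad3 rose in EC-KO, and the other 8 did not pass the test. These 2 calls make 20% of the 10, where 27.1% of all tested genes were called (edgeR's quasi-likelihood test, Benjamini-Hochberg adjusted p under 0.05). In 4 of the 10 the ranges of the groups did not overlap, below FL for Smad5 and Smad6 and above FL for Smad3 and Smad7, where 45.4% of all tested genes had ranges that did not overlap (22.8% below FL and 22.6% above). With 10 genes, both shares are near those of all genes. Without EC-KO 2 the calls numbered 5 (Smad1, Smad6 and Id1 lower, Smad3 and Smad7 higher), beside 6740 of 19182 tested genes, and without any single other library there was 1, the fall of Smad6. Signal-carrying SMADs had a median log2 fold change of -0.01, inhibitory SMADs of -0.90 and ID genes of -0.11, beside 0.03 over all tested genes.

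**Figure D1:**
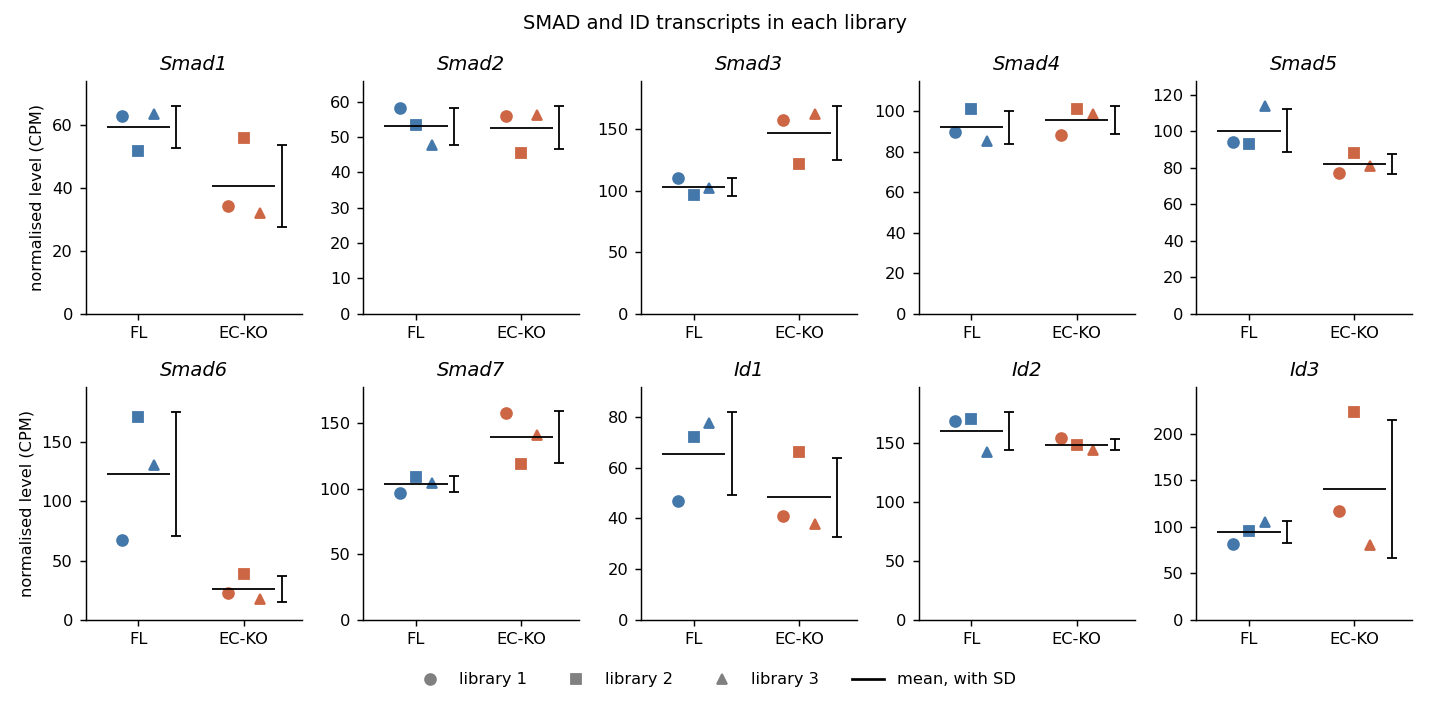
Normalised level in CPM (y axis, from 0) of each SMAD and ID gene in the 3 FL and 3 EC-KO libraries, with the group mean as a line and its SD as a bar. Smad6 lies between 17.4 and 38.3 CPM in EC-KO and between 67.7 and 171 CPM in FL, and EC-KO 2 stands nearest to FL for Smad1, Smad3, Smad6 and Smad7.

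Smad6 and Smad3 are neighbours on chromosome 9, and their promoters are shown because these are the genes that passed the test, in opposite directions. In GRCm38, Smad6 (ENSMUSG00000036867) spans 63953076 to 64022059 and Smad3 (ENSMUSG00000032402) 63646767 to 63757994, both on the minus strand, with 195 kb between them. The sequences are the 250 bases before each start in RefSeq's annotation of GRCm38.p6, read 5′ to 3′ along the gene, with each SMAD box (the letters GTCT, or AGAC on the other strand) in capitals. They lie at chr9:64022060-64022309 for Smad6 and chr9:63757995-63758244 for Smad3, minus strand.
Smad6: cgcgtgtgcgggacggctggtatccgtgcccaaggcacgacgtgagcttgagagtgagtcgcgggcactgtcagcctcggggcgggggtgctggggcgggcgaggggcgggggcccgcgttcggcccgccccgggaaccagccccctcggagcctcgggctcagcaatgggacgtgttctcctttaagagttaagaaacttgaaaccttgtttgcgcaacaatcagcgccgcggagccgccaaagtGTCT
Smad3: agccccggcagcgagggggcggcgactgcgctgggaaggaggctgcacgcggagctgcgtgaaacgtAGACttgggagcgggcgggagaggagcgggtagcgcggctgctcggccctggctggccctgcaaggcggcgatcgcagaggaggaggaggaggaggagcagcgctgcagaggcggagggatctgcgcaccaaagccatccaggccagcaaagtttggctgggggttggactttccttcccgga
The box directly before the start of Smad6 and the box in Smad3 were each the 1 match in their window. Of 32851 promoters of this length in the table, 82.9% held at least 1 such box, so its presence does not set these promoters apart. The GC-rich element GGCGCC, which SMAD1 and SMAD5 complexes are known to favour, had 0 matches in either window and was found in 9.59% of all promoters. The windows of Smad6 and Smad3 held 66.8% and 69.2% G and C, beside a median of 52.4% over all promoters. Among the other windows searched, Id2 and the second of 3 starts of Smad5 held 1 GGCGCC each. Id3 and the third start of Smad5 held 2 SMAD boxes each, Id2 and the other starts of Smad5 held 1 each, and Smad1 held 0. The median over all promoters was 2 boxes. Promoters were read for 6 of the 10 SMAD and ID genes: Smad1, Smad3, Smad5, Smad6, Id2 and Id3. Those of the remaining genes, Id1 among them, were not read, so nothing is known here of their boxes.

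Of the signal-carrying SMADs of the BMP branch, Smad1 was at 62.7, 51.5 and 63.5 CPM in FL 1, 2 and 3 and at 34.2, 55.6 and 31.9 CPM in EC-KO 1, 2 and 3. EC-KO 1 and 3 lay below every FL library, while EC-KO 2 lay within the FL range. The log2 fold change was -0.54 ± 0.23 (SE; adjusted p = 0.105, edgeR), and without EC-KO 2 it was -0.87 with an adjusted p of 0.00277. EC-KO 2 was also the knockout library with the highest means of pan-endothelial (-0.51), fibroblast (2.48) and epithelial (2.72) markers. The part of these cells in the Smad1 level was not tested. Smad5, which works beside Smad1 as a BMP-activated SMAD, was at 94.0, 93.2 and 114 CPM in FL and at 77.4, 88.1 and 81.1 CPM in EC-KO. All 3 knockout libraries were below all 3 floxed ones, but by a small margin, and the log2 fold change of -0.29 ± 0.15 (SE) did not pass the test (adjusted p = 0.191, edgeR).

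In the TGF-beta branch Smad3 rose. Its level was 110.4, 96.1 and 102 CPM in FL 1, 2 and 3 and rose to 157, 122 and 162 CPM in EC-KO 1, 2 and 3, with means of 103 ± 7.21 and 147 ± 21.8 CPM (SD, n = 3 each; 1.43-fold). Every EC-KO library was above every FL library, EC-KO 2 by the least. The log2 fold change was 0.51 ± 0.17 (SE), just past the threshold (adjusted p = 0.0471, edgeR). It missed the threshold without any filter on low counts (adjusted p = 0.0824) and on leaving out any library but EC-KO 2 (0.0863, 0.173 and 0.163 for the FL libraries in turn, 0.146 and 0.153 for EC-KO 1 and 3), and it was called in 9 of the 16 alternatives run for single genes, with an upward direction in all 16. Smad2, the other SMAD of this branch, was at 58.2, 53.3 and 47.8 CPM in FL, with 56.1, 45.6 and 56.3 CPM in EC-KO. The libraries of both groups were interleaved, and the log2 fold change was -0.01 ± 0.16 (SE; adjusted p = 0.962, edgeR). That value changed sign with upper-quartile scaling (0.06) and library-size scaling (0.08).

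Smad4, the shared partner, was at 89.6, 101 and 85.2 CPM in FL and at 88.0, 101 and 98.4 CPM in EC-KO, again with overlapping groups. Its log2 fold change was 0.06 ± 0.15 (SE; adjusted p = 0.807, edgeR), and it was -0.03 without FL 3 and -0.01 without EC-KO 2. Smad2 and Smad4 had SDs of 9.73% and 9.07% of the mean in FL and 11.6% and 7.15% in EC-KO. These were not the smallest of the 10 genes, as Smad7 had 6.03% in FL and Id2 3.25% in EC-KO. The median gene of like level had SDs of 10.7% and 15.9% of the mean.

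Of the 2 inhibitory SMADs, Smad6 fell and Smad7 did not pass the test. Smad6 was at 67.7, 171 and 130.2 CPM in FL 1, 2 and 3 and at 23.0, 38.3 and 17.4 CPM in EC-KO 1, 2 and 3, from raw counts of 1785, 5610 and 4276 against 798, 1220 and 564. The groups were far apart, although FL 1 had less than the other floxed libraries and EC-KO 2 more than the other knockout libraries. Mean Smad6 fell 4.69-fold, from 123 ± 52.2 to 26.2 ± 10.8 CPM (SD, n = 3 each). In edgeR's test its log2 fold change was -2.23 ± 0.38 (SE; adjusted p = 0.00406). Smad6 was called lower in all 16 alternatives, with log2 fold changes from -2.63 to -1.16. Its spread between libraries was wide, at 42.4% of the mean in FL and 41.0% in EC-KO.

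Smad7 was at 96.9, 109 and 104 CPM in FL and at 158, 119 and 141 CPM in EC-KO. All 3 knockout libraries were above all 3 floxed libraries, EC-KO 2 again by the least. The log2 fold change of 0.43 ± 0.16 (SE) missed the threshold (adjusted p = 0.0759, edgeR), and passed it without EC-KO 2 (0.50, adjusted p = 0.0177) and with upper-quartile scaling (0.51, adjusted p = 0.0458). Within a library, the level of Smad6 per kilobase of gene length relative to that of Smad7 was -0.02, 1.15 and 0.82 (log2 ratio) in FL, against -2.28, -1.14 and -2.51 in EC-KO. This ratio does not depend on how libraries are scaled. Per kilobase, Smad6 was thus near or above Smad7 in floxed libraries and below it in each knockout library. The difference of means was -2.63 (exact permutation p = 0.10, two-sided, the smallest p that 3 against 3 libraries allow, and 0.133 after adjustment over 16 ratios). The log2 ratio of Smad7 to Smad3 was 0.30 ± 0.19 in FL and 0.22 ± 0.11 in EC-KO (SD, n = 3 each), with overlapping groups (exact permutation p = 0.40).

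Of the 3 ID genes 0 passed the test, and their fold changes had both signs. Id1 was at 46.9, 72.0 and 77.7 CPM in FL 1, 2 and 3 and at 40.9, 66.2 and 37.8 CPM in EC-KO 1, 2 and 3. FL 1 lay with the low knockout libraries and EC-KO 2 with the high floxed ones, so the groups overlapped (log2 fold change -0.44 ± 0.26 SE, adjusted p = 0.242, edgeR). Without EC-KO 2, Id1 was called lower (-0.77, adjusted p = 0.0221), and without FL 1 it was at -0.66 (adjusted p = 0.107).

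Id2 had the highest mean per kilobase of the ID genes in FL, although its range overlapped those of Id1 and Id3. It was at 169, 170.4 and 142 CPM in FL and at 154, 148 and 144 CPM in EC-KO. All knockout libraries lay within the floxed range, with an SD of 3.25% of the mean (log2 fold change -0.11 ± 0.15 SE, adjusted p = 0.618, edgeR). Id3 was at 81.6, 95.0 and 105 CPM in FL and at 117, 223 and 80.7 CPM in EC-KO. EC-KO 2 stood above all other libraries and EC-KO 3 below all of them, and the SD in EC-KO was 52.7% of the mean. The log2 fold change of 0.58 ± 0.33 (SE) did not pass the test (adjusted p = 0.214, edgeR) and was 0.05 without EC-KO 2. In that library the means of fibroblast and epithelial markers relative to FL were also the highest (2.48 and 2.72, against 0.99 to 1.79 and 2.05 to 2.14 in EC-KO 1 and 3). Among the knockout libraries, its pan-endothelial, smooth muscle and pericyte, and lymphatic endothelial means were the highest as well (-0.51, -0.56 and -0.75). For these lists EC-KO 1 and 3 were at -1.41 and -1.44, at -1.17 and -0.92, and at -1.28 and -1.50. The part of any of these cells in the Id3 level was not tested.

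The ratio of Id1 to Id3 did not overlap between the groups, although the level of each gene did. The log2 ratio of Id1 to Id3 per kilobase was -0.17, 0.23 and 0.19 in FL 1, 2 and 3, against -0.90, -1.13 and -0.47 in EC-KO 1, 2 and 3, with all knockout libraries below all floxed ones (difference of means -0.91, exact permutation p = 0.10, two-sided; adjusted over 16 ratios, 0.133). Most of the 16 ratios likewise did not overlap between the groups, with the same exact permutation p, so this separation is not particular to Id1 and Id3. The ratios of Id1 and of Id3 to Id2 overlapped between the groups.

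Levels of different genes are compared here per kilobase of the gene length in the count table. That length need not be the length of the transcripts present in these cells, so the order is not one of molecule numbers. In FL, Id2 (65.8 ± 6.50 CPM per kilobase), Id1 (56.5 ± 14.1), Id3 (52.4 ± 6.55) and Smad6 (38.4 ± 16.3; SD, n = 3 each) were highest, and neighbours in that order overlapped. They were followed by Smad4 (24.8), Smad7 (22.9), Smad3 (18.6), Smad5 (13.5), Smad1 (9.45) and Smad2 (6.05), and from Smad7 down each gene was apart from the next in all 3 libraries. In EC-KO the order was Id3 (78.5 ± 41.4), Id2 (61.0 ± 1.98), Id1 (41.6 ± 13.4), Smad7 (30.8), Smad3 (26.5), Smad4 (25.8), Smad5 (11.1), Smad6 (8.19), Smad1 (6.48) and Smad2 (6.0). Smad6 thus went from place 4 to place 8, where it overlapped Smad5 and Smad1.

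As a share of all 7 SMAD transcripts per kilobase, Smad6 made up 18.2%, 35.9% and 29.9% in FL 1, 2 and 3, against 6.17%, 10.5% and 4.75% in EC-KO 1, 2 and 3. Smad7 had 16.2% to 18.5% in FL and 23.2% to 29.9% in EC-KO, and Smad3 had 11.6% to 17.2% and 19.4% to 25.4%. Shares add to a fixed total, so a lower share of Smad6 raises the others. The BMP-branch pair Smad1 and Smad5 together had 13.9% to 19.6% in FL and 13.6% to 18.3% in EC-KO, and the TGF-beta pair Smad2 and Smad3 had 15.7% to 22.9% and 24% to 31.0%. The summed level of the 7 SMADs was 116, 149 and 136 CPM per kilobase in FL, against 116, 113 and 115 in EC-KO.

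**Figure D2:**
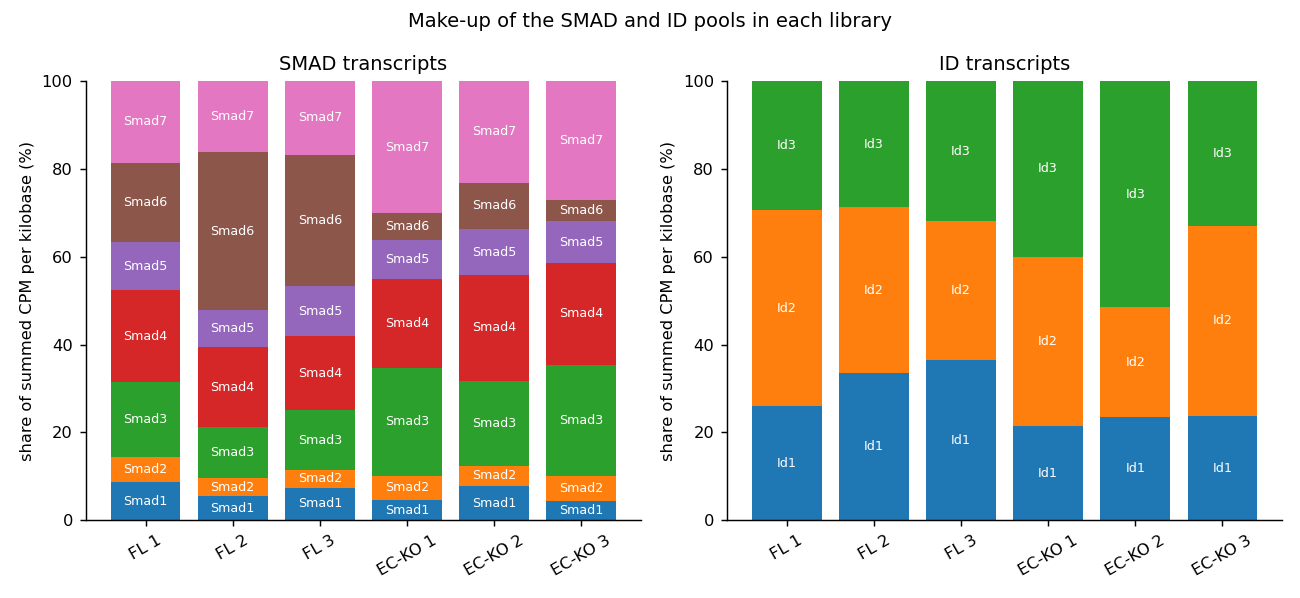
Share of each gene (y axis, percent of the summed CPM per kilobase) among the 7 SMAD transcripts (left) and the 3 ID transcripts (right), 1 bar per library. Smad6 takes 18.2% to 35.9% of the SMAD total in FL and 4.75% to 10.5% in EC-KO, and Id1 takes 26.0% to 36.4% of the ID total in FL and 21.5% to 23.8% in EC-KO.

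Since endothelial markers were lower in EC-KO, each gene was also set against the pan-endothelial list, by scaling the libraries to equal mean levels of its 27 markers. This scaling moved the median of all tested genes to 1.20, with 11203 genes higher and 253 lower. Smad6 was still called lower (log2 fold change -1.16 ± 0.35 SE, adjusted p = 0.0155, edgeR), so it was down relative to these markers as well. Relative to the list, Smad6 was at -1.59, -0.43 and -1.07 (log2) in FL 1, 2 and 3 and at -1.93, -2.10 and -2.30 in EC-KO 1, 2 and 3, all lower than in FL.

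The other 9 genes had positive values on that scale, and 7 of them were called higher. Most genes were called higher on it, 11203 of the 18562 tested. Smad3 was at 1.73, Smad7 at 1.64, Id3 at 1.60, Smad4 at 1.21, Smad2 at 1.18, Id2 at 1.05 and Smad5 at 0.88 (log2 fold change; adjusted p from 0.00202 to 0.0315, edgeR). Smad1 (0.53, adjusted p = 0.134) and Id1 (0.66, adjusted p = 0.0672) were not called, and both turned from negative to positive, as did Smad2, Smad5 and Id2. Beside the median gene at 1.20 on this scale, Smad3, Smad7 and Id3 lay above, Smad2 and Smad4 close to it, and Smad1, Smad5, Id1 and Id2 below.

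**Figure D3:**
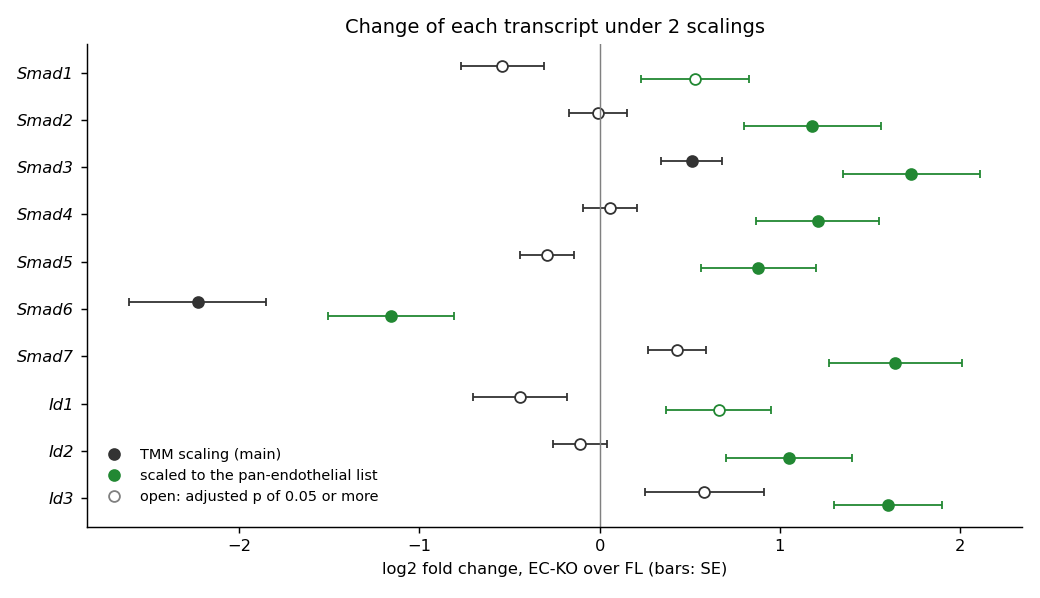
Log2 fold change of EC-KO over FL (x axis) with its SE for each gene, under TMM scaling (black) and with libraries scaled to the pan-endothelial list (green); filled points have an adjusted p under 0.05. Smad6 is lower on both scales (-2.23 and -1.16), and the other 9 genes lie at 0.53 to 1.73 on the second.

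Other genes of the pathway were read from lists. Among 8 tested further targets of BMP SMADs, 4 fell and 0 rose, with a median log2 fold change of -0.75. Over all tested genes 13.5% were called lower and 13.5% higher, the background for this and the following lists. Tmem100, an endothelial membrane protein gene induced by BMP receptor signalling, was at 377, 591 and 659 CPM in FL 1, 2 and 3 and at 70.9, 115 and 54.1 CPM in EC-KO 1, 2 and 3 (-2.76 ± 0.32 SE, adjusted p = 0.000937, edgeR). The bHLH gene Atoh8 went from 10.6, 14 and 17.4 to 3.41, 3.67 and 2.16 CPM (-2.18 ± 0.28 SE, adjusted p = 0.00126, edgeR). Both were also called lower when scaled to the pan-endothelial list (-1.68 and -1.04), as Smad6 was. The other 2 that fell were Hey1 (-1.68, adjusted p = 0.00141, edgeR) and Hey2 (-1.14, adjusted p = 0.0438), bHLH repressor genes also known as Notch targets. Neither was called on the pan-endothelial scale (adjusted p = 0.153 and 0.881), and Hey2 was called in 1 of 6 comparisons with a library left out, the one without EC-KO 2. On the pan-endothelial scale the whole list had 2 genes called lower and 3 higher, beside 253 lower and 11203 higher among all tested genes.

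Upstream of the SMADs, 2 of 13 receptor genes fell and 1 rose (median -0.33). The falls were those of Bmpr2 (-1.52) and Acvrl1 (-1.57), the type II and type I receptors through which BMP9 and BMP10 reach SMAD1 and SMAD5 in endothelium. Neither passed the test when scaled to the pan-endothelial list (both at -0.47, adjusted p = 0.135 and 0.144). Amhr2 rose from a very low level (0.265 to 0.487 CPM in FL, 0.990 to 1.82 CPM in EC-KO) and was not called without EC-KO 1 (adjusted p = 0.0612). Among 13 ligand genes 2 fell and 2 rose, with Bmp6 at -1.30 and Inhbb at -1.05 against Tgfb1 at 0.85 and Bmp5 at 0.93. Bmp5 lost its call on leaving out any library but EC-KO 3 (adjusted p = 0.10, 0.0634 and 0.156 for the FL libraries in turn, 0.0555 and 0.0720 for EC-KO 1 and 2), Inhbb without either of FL 1 and 3 or of EC-KO 1 and 3 (0.0622, 0.0750, 0.0845 and 0.0664) and Tgfb1 without FL 2 or FL 3 (0.0523 and 0.0559). Among 17 extracellular modulators 3 fell and 5 rose, with Tll1 at -1.90 and Crim1 at -1.27 against Smoc2 at 2.46. Scaled to the pan-endothelial list, Bmp6, Crim1 and Tll1 were not called (adjusted p = 0.499, 0.644 and 0.0503).

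Of 24 tested other SMADs and cofactors 3 fell and 4 rose (median 0.06). The nuclear repressors of SMAD2 and SMAD3, Tgif1 (0.92) and Skil (0.71), rose beside Smad3, and the anchor protein gene Zfyve9 (-1.03) and the zinc finger gene Zfp423 (-1.19) fell. Of these, Skil was not called without either of FL 1 and 3 or of EC-KO 1 and 3 (adjusted p = 0.0614, 0.0936, 0.0641 and 0.0659), Zfyve9 not without FL 2, FL 3 or EC-KO 1 (0.0505, 0.0593 and 0.0611), and Tgif1 not without FL 3 (0.0576). Among 15 targets of SMAD2 and SMAD3, 4 fell and 3 rose (median -0.15), with Tgfbi at -2.07 and Postn at -1.18 against Itgb6 at 2.85 and Col1a2 at 1.30. Col1a2 is made mostly by fibroblasts and Itgb6 by epithelium, and the marker lists of both cell types were higher in EC-KO (medians 2.12 and 2.33). Other marker lists were lower, among them those of macrophages and of smooth muscle and pericytes (medians -2.23 and -1.0). The part of any of these cells in the rises and falls of these targets was not tested. Of 7 bHLH genes whose products IDs bind or oppose, 1 fell (Tal1, -1.18) and 0 rose (median -0.16). Zfp423, Postn and Tal1 were not called when scaled to the pan-endothelial list (adjusted p = 0.904, 0.790 and 0.798). Over these lists together 34 of 97 tested genes were called (35.1%, beside 27.1% of all tested genes). Without FL 1, FL 2, FL 3 or EC-KO 1 the calls fell to 2 in the ligands, to 5, 5, 4 and 5 in the modulators and to 4, 3, 1 and 3 in the cofactors, which had 4 without EC-KO 3. Without EC-KO 2 there were 12 in the cofactors, 11 in the SMAD2 and SMAD3 targets, 6 in the receptors and 2 in the bHLH genes. Calls over all genes went from 5029 to 4366, 2626, 2547 and 2832 without FL 1, FL 2, FL 3 and EC-KO 1. They came to 3422 without EC-KO 3 and to 6740 without EC-KO 2. These list counts moved in the same direction as those of all genes, but they were given because they shifted most. Not every list count did so. Without FL 1 the receptors went from 3 to 4 calls. Without EC-KO 2 the modulators went from 8 to 7, and the ligands stayed at 4.

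**Figure D4:**
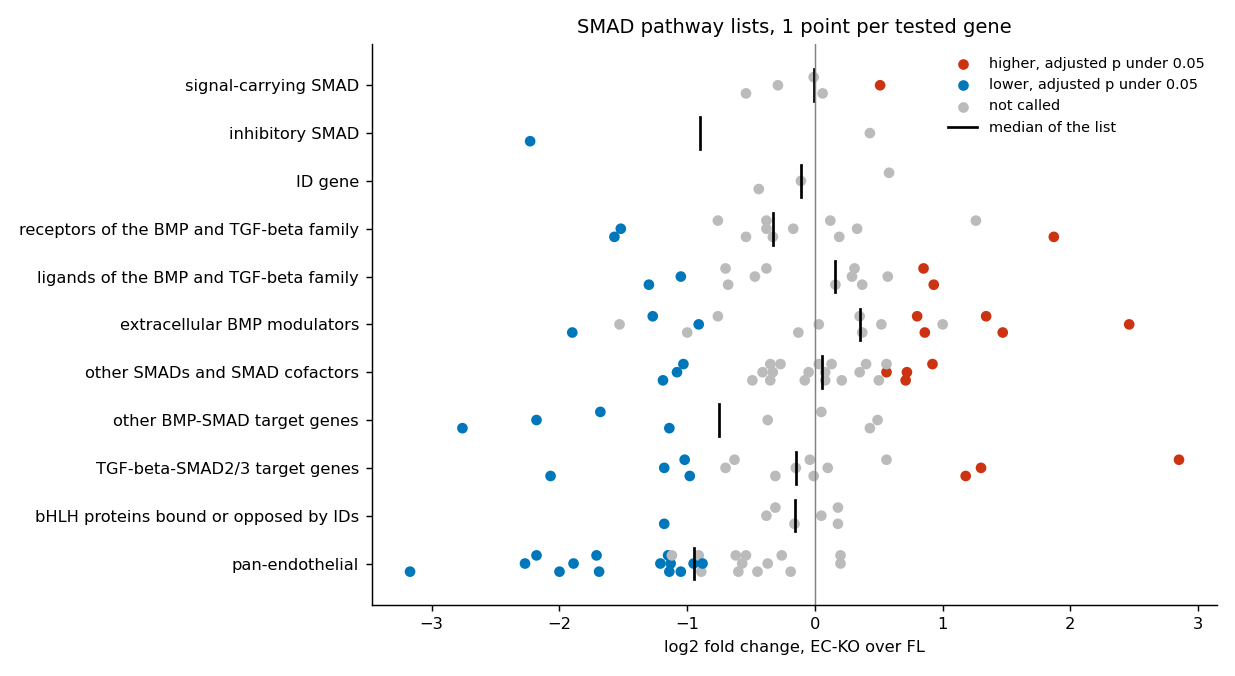
Log2 fold change of EC-KO over FL (x axis), 1 point per tested gene, for the SMAD and ID genes, the other lists of the pathway and the pan-endothelial markers (rows); black bars are list medians. Called genes lie on both sides of 0 among receptors, ligands, modulators, cofactors and SMAD2 and SMAD3 targets, while among the further BMP-SMAD targets 4 are lower and 0 higher.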

How the data were processed

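The authors deposited one table of raw counts by Ensembl gene, laid out as featureCounts output per the file headers. STAR 2.7.10b, featureCounts 2.0.3 and mm10 appear in the submitters' processing notes, which state neither role nor order. How reads were aligned, which annotation was counted and whether strand was used is not given in the sources used here. The gene length in bases, another value of that table, was used as deposited. Of 56941 genes 51948 took a symbol from GENCODE's GRCm38 annotation by identifier. Because 2.8% of matched genes had the same start in both, coordinates are those of that annotation, not of the table. The exons of the 10 genes overlapped no other counted gene except in Smad5, where 100 bases were shared with a gene at 0 counts. Another 2 columns could be tied to no labelled sample and were not used.

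Counts were analysed with edgeR 4.0.16 in R 4.3.3: filterByExpr, TMM scaling and the robust quasi-likelihood F test between the groups with all 6 libraries, EC-KO minus FL, two-sided, with Benjamini-Hochberg adjustment over all tested genes and a threshold of 0.05. Each SE comes from the fold change and its F value, so it is no measure separate from the p-value. CPM per kilobase is CPM divided by the gene length. Depth ran from 26658998 to 34306962 counts, and edgeR's common biological coefficient of variation came to 25.5%. The test was tested on simulated data with known changes.

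The members, lists and tests were chosen with earlier results of these data known. The rule for named genes took all 10 members, Fundc1, Cdh5 and Pecam1, up to 2 called genes per direction of each pathway list by smallest p, and the 2 genes with the nearest profile to each called member. One gene that this rule names is not reported here. Hey1 and Hey2 fall outside it and were picked with their values in view. Other settings tried were 4 scalings (RLE, upper quartile, library size, pan-endothelial list), 2 other filters, DESeq2 1.42.0, limma-voom (limma 3.58.1), an edgeR fit without the robust option, a block on the replicate number, each library left out and 2 other thresholds. Figures were drawn with matplotlib 3.10.9.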

Additional observations from a re-analysis of the deposited data

How the results depend on the processing

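Smad6 kept its direction and its call under all 16 alternatives (adjusted p up to 0.0247). Over the 10 SMAD and ID genes, 134 of 160 values under an alternative kept their direction and their side of the threshold. Scaled to the pan-endothelial list, 11456 of 18562 tested genes were called, with 8 of the 10 members and 58 other pathway genes. Signs turned there for Smad1 (0.53), Smad2 (1.18), Smad5 (0.88), Id1 (0.66), Id2 (1.05), Inhbb (0.02), Zfyve9 (0.05) and Fundc1 (0.17). Leaving out 1 library gave 2547 (without FL 3) to 6740 (without EC-KO 2) called genes, with 2626 without FL 2 and 2832 without EC-KO 1, 1 to 5 members, and 20 (without FL 3) to 47 (without EC-KO 2) other pathway genes. In those comparisons Smad2 ranged from -0.11 to 0.05, Smad4 from -0.03 to 0.12 and the difference in the log2 ratio of Smad7 to Smad3 from -0.18 to 0.01. Smad2 was at 0.06 with upper-quartile scaling, 0.08 with library size alone and 0.02 with the filter of 1 CPM in 3 libraries. At a threshold of 0.01 there were 2015 genes, 1 member and 17 other pathway genes. Without a filter on low counts 1 member was called. With the replicate number as a block 1 member was called (Smad3 at an adjusted p of 0.0907) and 3848 genes. Same-numbered libraries did not deviate together (correlations across genes of 0.12, 0.01 and -0.29), and the labels give them a shared number only. The share of higher among called genes was moved by upper-quartile scaling (2915 higher, 2167 lower) and by library size alone (2971 and 2192), beside 2515 and 2514. The cause of these shifts was not tested. With 3 libraries a group, an exact permutation test cannot go below 0.10.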

Other observations

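Smad3 and Smad6 lie on the same strand of chromosome 9 with 195 kb between them in GRCm38, and the genes annotated around them were read as well. Between the pair lie 2 processed pseudogenes and the long noncoding RNA Gm36033, which was at 0.908 CPM in FL and 0.977 in EC-KO (log2 fold change 0.10 ± 0.37 SE, adjusted p = 0.860, edgeR). Beyond Smad3, Aagab was at 23.0 and 34.1 CPM (0.57 ± 0.20 SE, adjusted p = 0.0643). Beyond Smad6, the ribosomal protein gene Rpl4 (0.21, adjusted p = 0.427), Snapc5 (0.01, adjusted p = 0.970) and the kinase gene Map2k1 (-0.43, adjusted p = 0.0894) were not called. Of the 10 tested genes from 200 kb beyond Smad3 to 200 kb beyond Smad6, the pair itself were the 2 called, where 27.1% of all tested genes were called. The window was set around the pair because both were called, so these 2 calls were fixed by that choice. The genes given here were chosen by position, after the values of the pair were seen.

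For each called member, the 2 genes with the most similar profile over the 6 libraries were sought among 13519 others, by the root mean square distance of centred log2 CPM values. Hspa12b, a heat shock protein family gene of endothelium, lay 0.157 from Smad6 (log2 fold change -1.97, not called without a filter on low counts, adjusted p = 0.0619), and Nynrin lay 0.178 from it (-2.28). Csnk2a2, a catalytic subunit of casein kinase 2, lay 0.0394 from Smad3 (0.53, adjusted p = 0.0369, called in 1 of 6 comparisons with a library left out), and Smg5, a factor of nonsense-mediated decay, lay 0.0410 from it (0.48, adjusted p = 0.0594).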
